A study of Homo sapiens with 12 samples.

Results

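The expressed LINC-named long noncoding RNAs were studied in 12 RNA-seq libraries labelled as Jurkat, a human leukemia line of T-cell origin. The genes were chosen by a name of the form LINC followed by digits and by their measured level, a mean of at least 1 FPKM (fragments mapped to a gene, scaled to its exon length and to the size of the library) over the 12 libraries. This selected 122 of the 2133 LINC-named rows among 60671 rows in the table. Of the LINC-named rows, 1484 (69.6%) were listed at 0 in every library.

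NC+DMSO and NC+VCR were control cells, labelled wild type, while the study's methods describe them as carrying the GFP vector. PTPN21+DMSO and PTPN21+VCR overexpressed PTPN21, a cytoplasmic protein tyrosine phosphatase with a FERM domain. Each group had 3 libraries, and VCR (vincristine, a vinca alkaloid that blocks microtubule assembly) or its solvent DMSO was given for 48 h. Nothing in the labels says whether replicates were separate cultures or the lines single clones, so p-values measure only the spread between these libraries. PTPN21 was at 0.0638 ± 0.0378 FPKM in NC+DMSO and 0.367 ± 0.205 in NC+VCR, and 8.82 ± 1.48 in PTPN21+DMSO and 5.74 ± 1.21 in PTPN21+VCR (mean ± SD, n = 3), so every PTPN21 library lay above every NC library.

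The T-cell label was not borne out by its markers. Of 15 T lineage genes, only CD3D and TRBC1 reached a mean of 1 FPKM, and LCK, CD247, CD5 and CD28 were listed at 0 in all libraries. The summed level of those 15 genes was 64.6 to 147 FPKM per library, nearly all of it CD3D. Of 14 markers of other cells, the epithelial genes KRT8 and EPCAM and the myeloid gene LYZ were the 3 that were tested, and the 14 together summed to 378 to 1057 FPKM by group. Most of that sum was KRT8, a keratin, at means of 296 FPKM in NC+DMSO and 776 in NC+VCR, and 293 in PTPN21+DMSO and 947 in PTPN21+VCR. KRT8 rose with VCR in both cell populations, by 1.40 ± 0.19 (limma adjusted p = 0.000239) and 1.66 ± 0.19 (adjusted p = 8.26e-05) on the log2 scale. A set of 9 erythroid genes, chosen after these values were seen (GATA1, KLF1, HBG1, HBG2, HBZ, HBA1, NFE2, HEMGN and ALAS2), together reached 966.5 to 4665 FPKM in every library. The group sums were 2146 in NC+DMSO and 979 in NC+VCR, and 3939 in PTPN21+DMSO and 1246 in PTPN21+VCR. All 9 were lower with VCR in NC cells and 8 of the 9 were in PTPN21 cells at a limma adjusted p under 0.05. HBB, the erythroid gene among the 14 markers, was not in this set and had a mean of only 0.194 FPKM. Its group mean was highest in NC+VCR at 0.555, where only replicate 3, at 1.66, was above 0. The libraries are therefore described by their labels, with no other cell type assigned. The fall of the chosen erythroid genes and the rise of KRT8 coincided with the VCR comparisons below, and their part in them was not tested. In bulk RNA, fewer cells of a type and less RNA per cell cannot be told apart.

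A LINC symbol is a placeholder given to an intergenic long noncoding RNA gene with no name based on function. Such RNAs are generally made by RNA polymerase II, capped, spliced and polyadenylated like mRNAs, but are not translated into a known protein. They are usually less abundant and more restricted to single cell types than mRNAs, and known examples act near their own gene, as scaffolds or by binding microRNAs. Most of the genes below have no settled role.

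Transcripts and promoters of the genes with the clearest changes are shown first. LINC01283 had the smallest adjusted p among the 122 genes in these comparisons. Its longest GENCODE 29 transcript runs over 4 exons at chrX:39401252-39434824 on the minus strand (GRCh38), and its first 300 of 786 bases are given with exon 2 in capitals. LINC00508, which fell in NC cells, has a transcript of 194 bases in 2 exons at chr12:127940595-127950160 on the minus strand, with exon 2 in capitals.
LINC01283: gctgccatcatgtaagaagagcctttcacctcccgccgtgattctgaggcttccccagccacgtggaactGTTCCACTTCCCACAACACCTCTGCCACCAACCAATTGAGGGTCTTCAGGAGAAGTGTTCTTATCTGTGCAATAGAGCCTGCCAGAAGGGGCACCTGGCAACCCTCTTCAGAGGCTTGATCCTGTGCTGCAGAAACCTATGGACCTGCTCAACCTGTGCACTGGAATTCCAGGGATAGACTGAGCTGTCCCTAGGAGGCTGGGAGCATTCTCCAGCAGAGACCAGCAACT
LINC00508: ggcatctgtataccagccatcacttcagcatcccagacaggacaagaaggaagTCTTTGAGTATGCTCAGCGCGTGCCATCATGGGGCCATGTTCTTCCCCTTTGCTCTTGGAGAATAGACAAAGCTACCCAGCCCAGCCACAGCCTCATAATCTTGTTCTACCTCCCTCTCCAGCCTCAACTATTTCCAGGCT

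RefSeq promoter windows of 300 bases, from 250 before to 50 after the start (GRCh38.p14), matched 70 of the 122 genes by symbol. They were searched on both strands for 5 motifs, none of which contains another. The TATA box was searched as TATAAA. The CCAAT box has its letters as its name. The GC box was searched as GGGCGG. The GATA element was searched as AGATAA. The AP-1 element was searched as TGANTCA. LINC00656 rose with VCR, and its window at chr20:23132587-23132886 on the minus strand held none of them. LINC02043 and LINC02805 fell in both cell populations. LINC02043, at chr3:186825472-186825771 on the minus strand, held a GC box from base 167 and, reading the other strand, a GATA element from base 249. LINC02805, at chr1:148162460-148162759 on the plus strand, held a GC box on the other strand from base 135. Capitals mark the matches.
LINC00656: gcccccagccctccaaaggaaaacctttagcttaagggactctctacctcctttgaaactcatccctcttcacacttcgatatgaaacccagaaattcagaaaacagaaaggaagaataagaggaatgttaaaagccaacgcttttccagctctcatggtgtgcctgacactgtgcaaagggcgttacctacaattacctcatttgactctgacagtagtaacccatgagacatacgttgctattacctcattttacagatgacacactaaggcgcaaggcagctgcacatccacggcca
LINC02043: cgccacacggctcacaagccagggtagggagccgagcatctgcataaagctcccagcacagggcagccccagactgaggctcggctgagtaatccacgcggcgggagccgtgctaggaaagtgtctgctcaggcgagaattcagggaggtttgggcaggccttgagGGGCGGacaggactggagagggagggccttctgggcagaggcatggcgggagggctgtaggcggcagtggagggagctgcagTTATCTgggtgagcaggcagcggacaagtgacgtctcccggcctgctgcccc
LINC02805: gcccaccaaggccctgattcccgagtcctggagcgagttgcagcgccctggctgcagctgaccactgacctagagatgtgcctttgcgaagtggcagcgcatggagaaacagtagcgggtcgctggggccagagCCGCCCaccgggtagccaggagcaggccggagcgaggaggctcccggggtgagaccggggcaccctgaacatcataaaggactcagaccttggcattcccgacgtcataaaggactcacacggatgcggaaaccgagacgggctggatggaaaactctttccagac

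Over the genes, the motifs were about as common as in promoters generally. A GC box was in at least 1 window of 31 of the 70 genes (44.3%), against 48.3% of 27305 genes with a window, and CCAAT was in 28 (40.0%), against 39.7%. TATAAA was in 13 (18.6% against 13.99%), the GATA element in 11 (15.7% against 12.4%) and the AP-1 element in 9 (12.9% against 9.37%). By single windows the shares among all 35116 promoters were 44.95%, 34.6%, 11.5%, 10.3% and 7.71% in the same order. There were 25 genes with a window that fell with VCR in at least 1 comparison. Of these, 14 held a GC box, 10 a CCAAT box, 4 a GATA element, 1 a TATA box and 1 an AP-1 element. Of the 6 that rose, 2 held a GC box, 2 a CCAAT box, 2 an AP-1 element, 1 a TATA box and none a GATA element. These are matches of letters and not binding sites.

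All 122 genes had an entry in GENCODE 29, spread over 23 chromosomes with 15 on chromosome 1 and 11 on chromosome 5. The annotation classed 94 as lincRNA, 11 as processed transcripts, 9 as antisense, 1 as a bidirectional promoter RNA and 7 as transcribed pseudogenes. Their median summed exon length was 2451 bases (range 178 to 15578), against 4993 for the protein-coding genes tested. The median GC content of the longest transcripts was 47.1% (29.9% to 63.6%). A protein-coding start lay within 10 kb of the start of 16 genes, on the opposite strand for 11 and within 1 kb of it for 5 of these. Exons of 41 genes overlapped those of another gene on either strand. The strand setting of the counting is not given in the sources used here, so reads of these genes and their partners may be mixed.

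The levels were low for most members. The median of the 122 means was 2.66 FPKM, against 6.64 for the 11591 genes that reached 1 FPKM, of which the LINC-named genes were 1.05%. Of the members, 20 had a mean of at least 10 FPKM, 17 were between 5 and 10, 44 between 2 and 5, and 41 below 2. Together they contributed 0.119% to 0.168% of each library's summed FPKM. The group sums were 851 ± 26.7 in NC+DMSO and 765 ± 16.4 in NC+VCR, and 915 ± 79.9 in PTPN21+DMSO and 788 ± 38.7 in PTPN21+VCR (SD, n = 3). These levels chose the members and are a description. Just above the limit were LINC01876 at 1.09, LINC00174 at 1.07 and LINC00243 at 1.03, and just below it were LINC01730 at 0.995, LINC02354 at 0.961 and LINC02568 at 0.940.

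**Figure D1:**
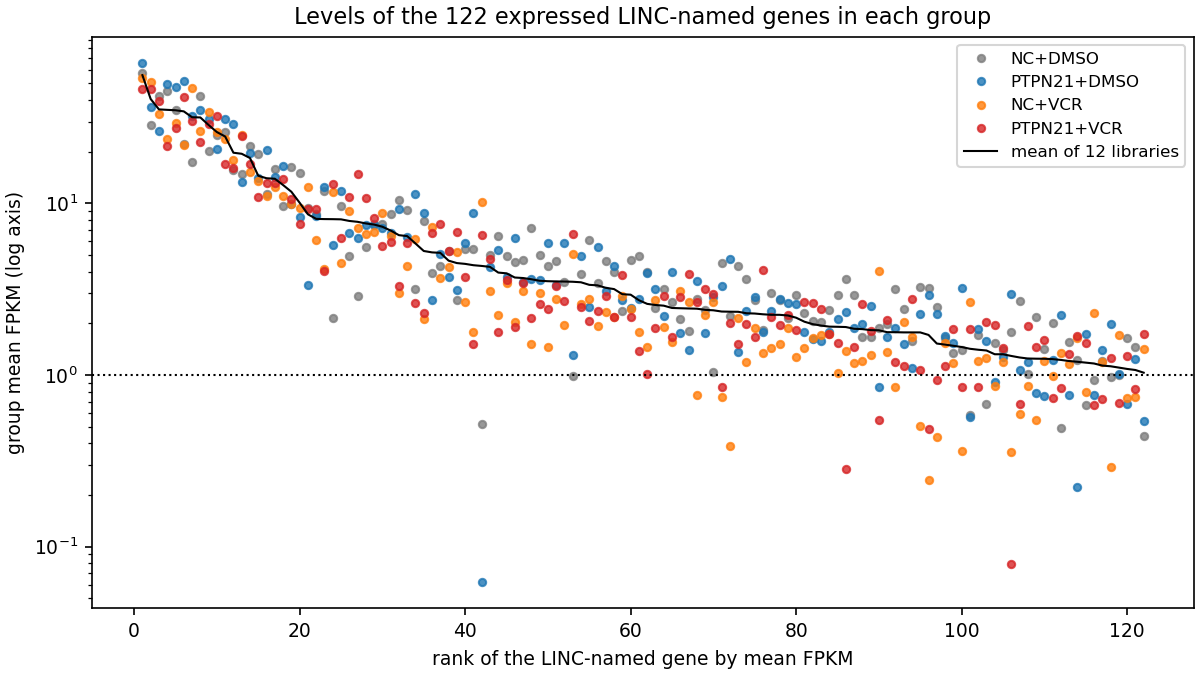
Group mean FPKM (log axis) of the 122 expressed LINC-named genes against their rank by mean FPKM; points are the 4 groups, the line is the mean of 12 libraries and the dotted line is the limit of 1 FPKM. LINC01283, at a mean of 4.32, has the widest spread of group means.

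LINC01578, now named CHASERR, was the most abundant, with a mean of 55.9 FPKM. It lies at chr15:92882707-92899701 beside CHD2, a chromatin remodeller gene whose output it is known to restrain. Its values were 69.2, 40.0 and 62.8 in NC+DMSO and 75.8, 55.7 and 29.8 in NC+VCR, and 47.5, 40.2 and 111 in PTPN21+DMSO and 57.4, 54.9 and 27.1 in PTPN21+VCR. All 4 groups overlapped. The log2 difference with VCR was -0.15 ± 0.42 (SE) in NC cells and -0.43 ± 0.42 in PTPN21 cells, with 95% intervals of -1.08 to 0.77 and -1.35 to 0.50. The nearest annotated protein-coding start, 706 bases away on the same strand, was AC013394.1, whose exons overlap it and whose group means were 0.701 to 1.70 FPKM.

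LINC01234 (mean 40.6) was at 28.9, 21.1 and 35.8 FPKM in NC+DMSO and at 39.8, 57.8 and 55.6 in NC+VCR. These groups did not overlap, and the log2 difference was 0.83 ± 0.21 (adjusted p = 0.0103). In PTPN21 cells it was at 45.5, 29.9 and 33.6 without and 43.1, 48.7 and 47.3 with VCR, which overlapped, with a difference of 0.36 ± 0.21 (adjusted p = 0.223).

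LINC02506 (mean 35.3) was at 41.9, 33.1 and 51.6 FPKM in NC+DMSO and 33.3, 32.9 and 33.4 in NC+VCR, and at 24.8, 28.1 and 26.7 in PTPN21+DMSO and 39.5, 38.2 and 40.2 in PTPN21+VCR. The PTPN21+DMSO libraries were the lowest 3 of the 12. It rose with VCR in PTPN21 cells by 0.55 ± 0.15 (adjusted p = 0.0157), a call lost without PTPN21+DMSO replicate 1 (adjusted p = 0.056).

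LINC02772 (mean 35.1) was at 45.5, 46.3 and 44.0 FPKM in NC+DMSO and at 41.7, 53.5 and 54.1 in PTPN21+DMSO. With VCR it was at 15.8, 21.9 and 33.9 in NC cells and at 24.6, 21.0 and 18.9 in PTPN21 cells, below every DMSO library. The log2 differences were -0.96 ± 0.22 (adjusted p = 0.00602) and -1.17 ± 0.22 (adjusted p = 0.00238). The call in NC cells was lost with median ratio scaling (adjusted p = 0.0711).

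LINC01366 (mean 34.9) was at 34.3, 31.8 and 39.6 FPKM in NC+DMSO and 44.7, 52.7 and 45.5 in PTPN21+DMSO. With VCR it was at 29.5, 29.6 and 29.1 in NC cells and 26.7, 29.5 and 26.0 in PTPN21 cells. It fell in PTPN21 cells by 0.77 on the log2 scale (SE 0.12, adjusted p = 0.000831), while in NC cells the difference was -0.25 ± 0.12 (adjusted p = 0.138). The order of these means from LINC02506 to LINC01366 differed by far less than the spread over libraries.

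The genes most like these over the 12 libraries, by Pearson's r of log2(FPKM + 1), are given as a description in which the group differences are shared. For LINC01578 they were LINC01287 (0.693), LINC00963 (0.674) and LINC01006 (0.507), and for LINC01234 LINC01283 (0.733), LINC02616 (0.709) and LINC00520 (0.701). For LINC02506 they were LINC00540 (0.794), LINC02864 (0.717) and LINC02156 (0.593). LINC02772 was most like LINC00052 (0.905), LINC02739 (0.903) and LINC00942 (0.892), and LINC01366 like LINC02739 (0.891), LINC02043 (0.864) and LINC02805 (0.812).

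To ask which of these RNAs changed with VCR in control cells, NC+VCR was compared with NC+DMSO. LINC01283, LINC02608 and LINC00656 rose, and LINC00052, LINC00942, LINC00508, LINC02805, LINC00668, LINC00863 and LINC02163 fell with the smallest adjusted p-values. In all, 39 of the 122 passed the threshold, against 36.2% of all genes tested. Of these 8 rose (7.91% of all genes rose) and 31 fell (28.3% fell), so the share was near that of all genes. The 2 groups did not overlap for 51 genes (44.1% of all genes). The NC+VCR libraries listed 16878, 16232 and 18105 genes above 0, fewer than any other library (18617 to 20329). The part of this in the falls was not tested. The median log2 difference was -0.39 over the members and -0.36 over all genes. With median ratio scaling the all-gene median was -0.04 and the split of called members was 13 higher and 16 lower. Of all 11591 genes, 1717 were then called higher and 1361 lower, so the excess of falls depends on the scale of the libraries.

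In PTPN21 cells the same question was asked with PTPN21+VCR against PTPN21+DMSO. There 33 of the 122 passed, against 28.5% of all genes, of which 13 rose (9.22% of all genes) and 20 fell (19.3%). The groups did not overlap for 59 genes (50.4%). The median was -0.17 over the members and -0.17 over all genes. Median ratio scaling gave 15 members higher and 14 lower, and 1584 and 1446 of all 11591 genes. Without PTPN21+DMSO replicate 1 the count was 21 members, and 2368 of all 11591 genes.

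The log2 differences of these 2 comparisons share no libraries. Their SE and adjusted p come from the same fit to all groups, with a shared estimate of the spread. Calls made in both are therefore not independent. In both comparisons 19 members passed, all in the same direction, 5 of them higher (5.02% of all genes were higher in both) and 14 lower (13.8%). Only 0.155% of all genes passed in both in opposite directions, so a shared direction was not particular to the members. The 5 were LINC01283, LINC02608, LINC00656, LINC02616 and LINC00431. The 14 were LINC00052, LINC00942, LINC02805, LINC00863, LINC02043, LINC01088, LINC01089, LINC00173, LINC02772, LINC01003, LINC01569, LINC02739, LINC01431 and LINC00885. Several of these calls did not hold throughout. In PTPN21 cells LINC00173 was lost in 2 of 7 other settings and without any 1 of 3 libraries, PTPN21+DMSO replicate 1 and PTPN21+VCR replicates 2 and 3 (adjusted p = 0.0521 to 0.0872). LINC01003 was lost there in 2 settings and without any 1 of 4 libraries, replicates 1 and 3 of both PTPN21 groups (adjusted p = 0.0563 to 0.0928). LINC01431 was lost there in 5 settings and without any 1 of 4 libraries, replicates 1 and 2 of both PTPN21 groups (adjusted p = 0.0572 to 0.213). In NC cells LINC01088 was lost with median ratio scaling (adjusted p = 0.135), and LINC02616 with only the groups compared (adjusted p = 0.0844) and without NC+VCR replicate 3 (adjusted p = 0.0504). The losses of LINC02608, LINC02772, LINC01569, LINC02739 and LINC00885 are given with their values. Over the members the 2 sets of log2 differences had Pearson's r of 0.687 and Spearman's rho of 0.634 (n = 122), and over all 11591 genes r was 0.690. The sign was the same for 85 members (69.7%, against 75.1% of all genes).

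**Figure D2:**
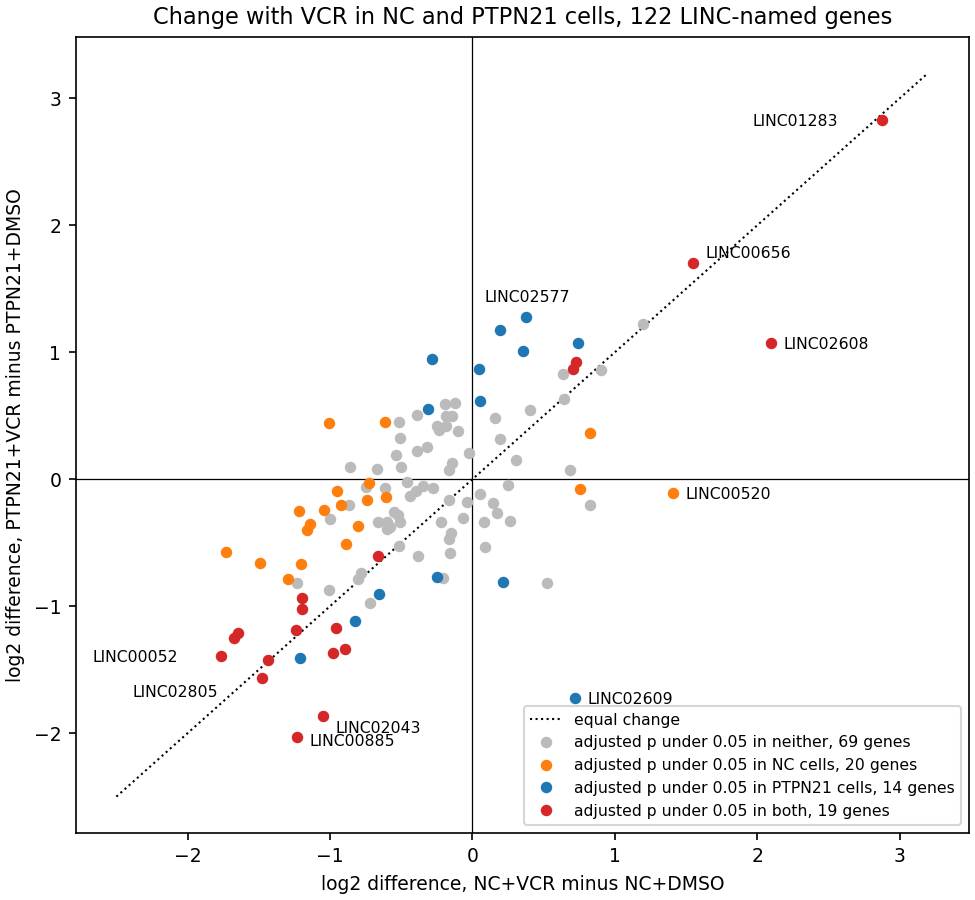
Log2 difference in log2(FPKM + 1) with VCR in NC cells (x axis) against PTPN21 cells (y axis), 1 point per LINC-named gene, coloured by the comparisons in which the adjusted p was under 0.05. The 19 genes past the threshold in both lie in the upper right and lower left, with LINC01283 farthest out at 2.87 and 2.83.

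LINC01283 was close to absent without VCR and present in all 6 libraries with it. Its FPKM was 0.545, 0.476 and 0.526 in NC+DMSO and 0.187 in PTPN21+DMSO replicate 1, and it was listed at 0 in the other two PTPN21+DMSO libraries. With VCR it was at 9.66, 11.2 and 9.52 in NC cells and at 5.64, 6.87 and 7.22 in PTPN21 cells. The differences of log2(FPKM + 1) were 2.87 ± 0.19 (adjusted p = 1.27e-06) and 2.83 ± 0.19 (adjusted p = 1.55e-06), and both calls held in all 7 other settings and without each of the 12 libraries. The pseudocount understates changes of such low values. LINC01283 reached the mean of 1 FPKM through the VCR groups, so a difference with VCR was part of its selection. The same limit applies to the other members that reached 1 FPKM in some groups only, listed below.

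LINC00656, on chromosome 20, was at 1.03, 0.821 and 1.11 FPKM in NC+DMSO and 1.79, 0.927 and 1.21 in PTPN21+DMSO. With VCR it was at 7.65, 3.90 and 3.57 in NC cells and 6.09, 9.14 and 4.72 in PTPN21 cells. Every VCR library was above every DMSO library, by 1.55 ± 0.29 (adjusted p = 0.00182) and 1.71 ± 0.29 (adjusted p = 0.00118).

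LINC02608, on chromosome 1, was at 1.78, 4.05 and 0.636 FPKM in NC+DMSO and 4.44, 7.54 and 5.13 in PTPN21+DMSO, and at 9.13, 8.85 and 16.9 in NC+VCR and 12.004, 12.7 and 13.9 in PTPN21+VCR. The rise in NC cells was 2.09 ± 0.37 (adjusted p = 0.00118). The rise in PTPN21 cells was 1.08 ± 0.36 (adjusted p = 0.0441) and did not hold in 4 other settings or without any 1 of 6 libraries, the 3 PTPN21+VCR ones and PTPN21+DMSO replicates 1 and 3 and NC+DMSO replicate 1, with adjusted p of 0.0567 to 0.135.

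LINC00520, among the most abundant at a mean of 31.8, rose in NC cells only by the threshold. It was at 11.1, 13.97 and 27.4 FPKM in NC+DMSO and 41.3, 68.5 and 31.5 in NC+VCR, a difference of 1.40 ± 0.32 (adjusted p = 0.00588). In PTPN21 cells it was at 28.8, 30.2 and 38.0 without and 24.5, 28.6 and 37.6 with VCR, a difference of -0.11 ± 0.32 with a 95% interval of -0.81 to 0.60. The difference between these responses was -1.51 ± 0.46 and did not pass (adjusted p = 0.206). This gene was named after its values were seen.

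Among the falls, LINC00052 was at 3.16, 3.64 and 2.79 FPKM in NC+DMSO and 3.21, 2.20 and 3.37 in PTPN21+DMSO. With VCR it was listed at 0 and at 0.339 and 0.396 in NC cells, and at 0.434, 0.458 and 0.556 in PTPN21 cells. The differences were -1.76 ± 0.21 (adjusted p = 0.000116) and -1.39 ± 0.21 (adjusted p = 0.000624).

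LINC02043, on chromosome 3, whose promoter is printed above, was at 1.82, 2.03 and 1.49 FPKM in NC+DMSO and at 3.67, 2.57 and 2.61 in PTPN21+DMSO. With VCR it was at 0.519, 0.474 and 0.0778 in NC cells and at 0.0538, 0 and 0.185 in PTPN21 cells. It fell by 1.05 (SE 0.22, adjusted p = 0.00325) and 1.86 (SE 0.22, adjusted p = 9.2e-05) on the log2 scale.

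LINC00942, on chromosome 12, went from 5.27, 4.55 and 3.63 FPKM in NC+DMSO to 0.615, 0.611 and 1.01 in NC+VCR, and from 3.75, 3.16 and 2.97 in PTPN21+DMSO to 1.00, 0.734 and 0.823 in PTPN21+VCR. The groups were well apart, with differences of -1.65 ± 0.20 (adjusted p = 0.000122) and -1.21 ± 0.20 (adjusted p = 0.00106).

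LINC02805, on chromosome 1, was at 5.26, 10.0 and 8.38 FPKM in NC+DMSO and 7.74, 8.64 and 10.1 in PTPN21+DMSO, and at 2.66, 1.93 and 1.77 in NC+VCR and 1.97, 2.25 and 2.70 in PTPN21+VCR. It fell by 1.48 (SE 0.23, adjusted p = 0.000643) and 1.57 (SE 0.23, adjusted p = 0.000509). Its exons overlap AC239809.3 on the opposite strand.

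LINC00863, whose exons overlap NUTM2D on the same strand, was at 6.38, 6.39 and 6.51 FPKM in NC+DMSO and 6.30, 4.34 and 5.47 in PTPN21+DMSO. It was at 1.95, 3.38 and 1.40 in NC+VCR and 2.12, 1.55 and 1.68 in PTPN21+VCR, lower by 1.24 ± 0.24 (adjusted p = 0.00198) and 1.19 ± 0.24 (adjusted p = 0.00311) on the log2 scale.

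LINC00885 was at 6.70, 5.35 and 4.20 FPKM in NC+DMSO and 0.941, 2.36 and 2.01 in NC+VCR, and at 11.7, 8.20 and 6.36 in PTPN21+DMSO and 1.68, 0.314 and 2.56 in PTPN21+VCR. The fall was 2.03 (SE 0.36, adjusted p = 0.00163) in PTPN21 cells. In NC cells it was 1.23 (SE 0.36, adjusted p = 0.0205), and this call was lost without NC+DMSO replicate 1 (adjusted p = 0.0683) or NC+VCR replicate 1 (adjusted p = 0.0711), and in 3 other settings (adjusted p = 0.0502 to 0.0942).

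LINC02739 was at 3.99, 4.34 and 5.29 FPKM in NC+DMSO and 6.39, 6.10 and 6.46 in PTPN21+DMSO, and at 2.02, 1.20 and 2.91 in NC+VCR and 1.86, 2.28 and 1.56 in PTPN21+VCR. It fell by 0.90 (SE 0.23, adjusted p = 0.0102) and 1.34 (SE 0.23, adjusted p = 0.00122). The call in NC cells was lost with median ratio scaling (adjusted p = 0.0609) and with only the groups compared (adjusted p = 0.0611).

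LINC01569 was at 3.71, 4.56 and 2.64 FPKM in NC+DMSO and 2.60, 1.93 and 2.43 in PTPN21+DMSO. It was at 1.87, 1.62 and 0.642 in NC+VCR and 0.281, 0.304 and 0.260 in PTPN21+VCR, where the 3 values were nearly equal. The falls were 0.98 (SE 0.25, adjusted p = 0.0101) and 1.37 (SE 0.25, adjusted p = 0.00191). In NC cells the call was lost in the same pair of settings (adjusted p = 0.0672 and 0.0582).

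Among the 16 genes, 3 more fell in NC cells by the threshold but did not pass in PTPN21 cells. LINC00508, whose transcript is printed above and whose exons overlap LINC00507 on the opposite strand, was at 6.58, 6.08 and 8.80 FPKM in NC+DMSO and 0.723, 1.48 and 2.35 in NC+VCR, a fall of 1.73 (SE 0.27, adjusted p = 0.000612). In PTPN21 cells it was at 3.26, 4.41 and 3.27 without and 2.22, 2.77 and 1.45 with VCR, a difference of -0.58 ± 0.27 (adjusted p = 0.136). The interaction was 1.16 ± 0.38 (adjusted p = 0.233).

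LINC00668 was at 2.53, 4.08 and 2.92 FPKM in NC+DMSO and 0.649, 0.989 and 0.912 in NC+VCR, a fall of 1.16 (SE 0.21, adjusted p = 0.00127), and at 1.79, 1.77 and 2.10 in PTPN21+DMSO and 1.02, 1.14 and 1.42 in PTPN21+VCR, a difference of -0.40 ± 0.21 (adjusted p = 0.169). Its exons overlap the pseudogene SCML2P1 on the opposite strand. LINC02163, now NIHCOLE, was at 4.14, 3.79 and 1.87 in NC+DMSO and 0.400, 0.937 and 0.167 in NC+VCR, a fall of 1.49 (SE 0.30, adjusted p = 0.00261). In PTPN21 cells it was at 1.58, 2.29 and 2.88 and at 1.40, 0.582 and 1.22, with a difference of -0.66 ± 0.30 (adjusted p = 0.119).

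**Figure D3:**
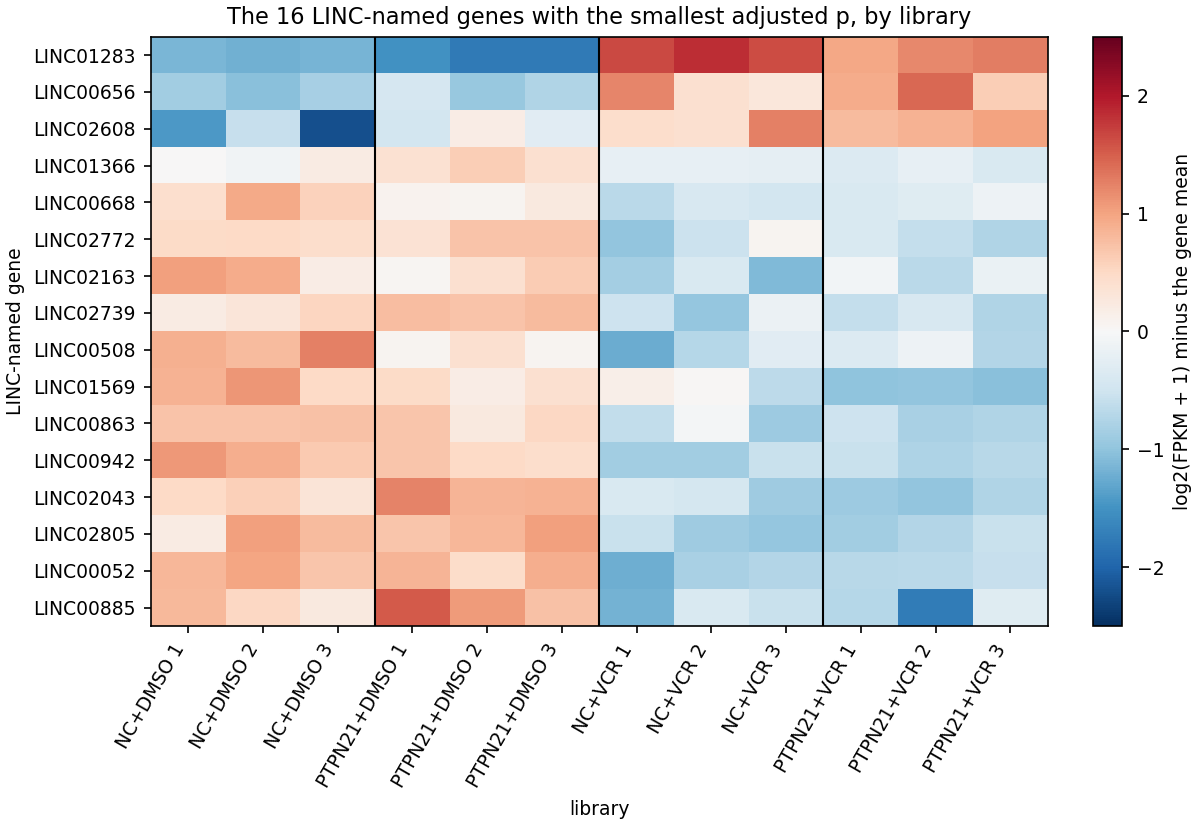
Log2(FPKM + 1) minus the gene's mean over 12 libraries for the 16 LINC-named genes with the smallest adjusted p in any comparison, ordered by their mean change with VCR; columns are libraries and vertical lines separate the groups. Centred values run from -2.20 to 1.84, and the upper 3 genes are high with VCR while the other 13 are low.

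The groups in which the mean reached 1 FPKM restate the measure that chose the genes. In 89 members it did so in all groups, in 14 in 3 groups, in 18 in 2 groups and in 1, LINC02320, in NC+VCR only. The 8 genes at or above 1 in both DMSO groups and below it in both VCR groups were LINC00942, LINC00052, LINC00200, LINC01311, LINC02043, LINC00630, LINC00115 and LINC00174. LINC01283, LINC01275 and LINC00243 showed the opposite pattern. LINC02625 reached 1 in the NC groups alone, and LINC01194 and LINC01176 in the PTPN21 groups alone. The other 18 were LINC01667, LINC01431, LINC00668, LINC02163, LINC02573, LINC01569, LINC02615, LINC01399, LINC02405, LINC01355, LINC00491, LINC01876, LINC02021, LINC00540, LINC01629, LINC00656, LINC01063 and LINC02245. These 33 genes reached the mean of 1 through the groups in which they were high, so a difference between groups was part of their selection.

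To ask what PTPN21 overexpression did without drug, PTPN21+DMSO was compared with NC+DMSO. In this comparison 5 members passed, against 6.34% of all genes, with 2 higher (2.65% of all genes) and 3 lower (3.69%). At an unadjusted limma p under 0.05 there were 30 members. Counts of this kind, here and below, were not made over all genes, so they show nothing particular to the members. The groups did not overlap for 33 members (33.4% of all genes). LINC02577 was at 9.46, 8.43 and 10.2 FPKM in NC+DMSO and 5.09, 2.08 and 2.89 in PTPN21+DMSO, lower by 1.31 ± 0.25 on the log2 scale (adjusted p = 0.0177). LINC02609 was at 2.51, 3.47 and 3.55 in NC+DMSO and 11.3, 6.85 and 15.95 in PTPN21+DMSO, higher by 1.51 ± 0.33 (adjusted p = 0.0283). LINC02506 was lower by 0.63 ± 0.15 (adjusted p = 0.0323).

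LINC00662 was at 15.5, 20.9 and 10.6 FPKM in NC+DMSO and 31.4, 25.05 and 31.2 in PTPN21+DMSO, higher by 0.90 ± 0.23 (adjusted p = 0.0405). LINC01011, whose exons overlap NQO2, a quinone reductase gene, was at 7.64, 5.46 and 5.18 and at 2.09, 1.97 and 3.42, lower by 1.03 ± 0.27 (adjusted p = 0.0448). Exons of LINC02577 and LINC00662 overlap those of other noncoding genes on the opposite strand. In the order given, the 5 calls held in 5, 4, 2, 3 and 1 of 7 other settings. No member passed without NC+DMSO replicate 1, NC+DMSO replicate 3 or PTPN21+DMSO replicate 3 (22 to 24 at an unadjusted p under 0.05), 1 without PTPN21+DMSO replicate 1, 2 without PTPN21+DMSO replicate 2 or PTPN21+VCR replicate 1, 3 without PTPN21+VCR replicate 2 or 3, and 9 without NC+DMSO replicate 2. Of the 9 erythroid genes, 4 were also higher in PTPN21+DMSO, and their part in these differences was not tested.

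With VCR in both groups, PTPN21+VCR was compared with NC+VCR. Only LINC02625 passed, against 1.82% of all genes; no member was higher (1.0% of all genes) and this 1 was lower (0.82%), with 13 members at an unadjusted p under 0.05. The groups did not overlap for 21 members (22.5%). LINC02625, on chromosome 10, was at 3.60, 3.76 and 4.69 FPKM in NC+VCR and 0.0770, 0.617 and 0.945 in PTPN21+VCR, a difference of -1.73 ± 0.34 (adjusted p = 0.0296). Without drug it was at 1.18, 2.56 and 1.89 in NC cells and at 0, 1.20 and 1.34 in PTPN21 cells. It reached a mean of 1 FPKM in the NC groups alone, so a difference between the cell populations was part of its selection. The call was lost with a pseudocount of 0.1 (adjusted p = 0.119), without a filter (adjusted p = 0.0907) and without any 1 of the 6 VCR libraries (adjusted p = 0.0561 to 0.115). Without NC+VCR replicate 3, 4 other members passed instead, as did 288 of all genes. Of these 6 genes, those other than LINC02506 were named after their values were seen.

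No member passed the test of whether VCR acted differently in the 2 cell populations, against 0.129% of all genes (limma), and 18 had an unadjusted p under 0.05. LINC02609 came nearest, with an interaction of -2.44 ± 0.47 (adjusted p = 0.0693). Its NC+VCR libraries were at 7.45, 7.91 and 3.23 FPKM, against 2.09, 3.53 and 2.25 in PTPN21+VCR, so it was 0.72 ± 0.33 higher with VCR in NC cells (adjusted p = 0.112) and fell by 1.72 (SE 0.33, adjusted p = 0.00273) in PTPN21 cells. Without NC+VCR replicate 3, its interaction passed (adjusted p = 0.0277). LINC02506 was next at 0.86 ± 0.21 (adjusted p = 0.128), and passed without NC+DMSO replicate 2 (adjusted p = 0.0451). LINC01283, the largest change in both populations, had an interaction of -0.04 ± 0.26 and a 95% interval of -0.62 to 0.53 on the log2(FPKM + 1) scale. This value depends on the pseudocount, since with 0.1 the rise was 4.05 in NC cells and 5.55 in PTPN21 cells and the interaction was 1.49, outside that interval. The adjusted p of the interaction was 0.299 to 0.982 over the alternatives. LINC01876, at a mean of 1.09 FPKM just above the limit, had VCR and DMSO libraries that were apart in opposite directions. It was lower with VCR in NC cells (1.93, 1.84 and 1.15 to 0.324, 0.872 and 1.01 FPKM) and higher in PTPN21 cells (0.623, 0.559 and 0.849 to 1.39, 1.09 and 1.39), with an interaction of 1.06 ± 0.32 (adjusted p = 0.203). Its call in NC cells was lost in most alternatives, with an adjusted p of up to 0.216. How many of all genes show such a pattern was not counted.

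**Figure D4:**
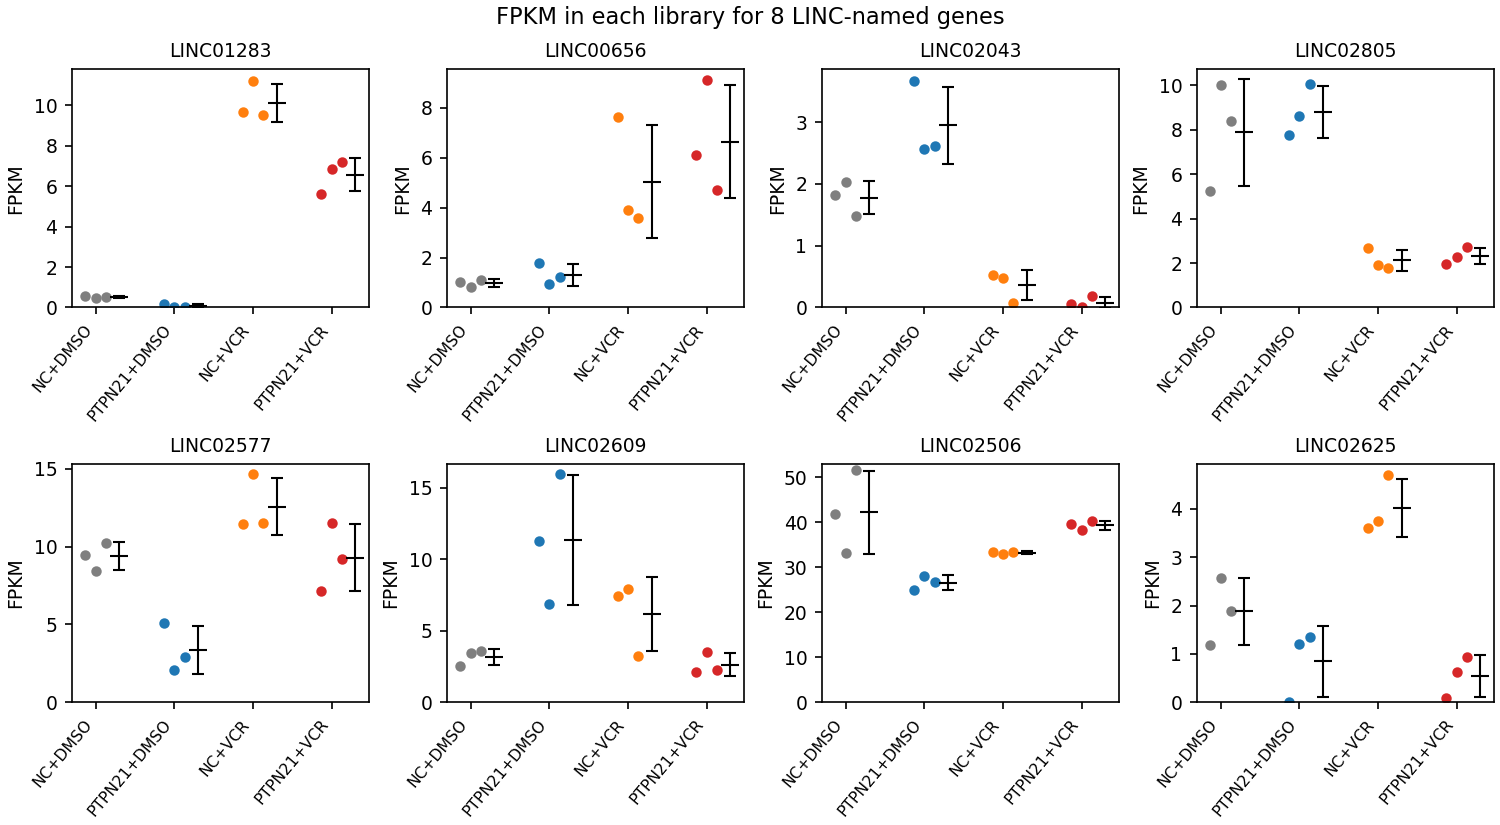
FPKM in each library (points) with the group mean and SD (bar, n = 3) for 8 LINC-named genes in the 4 groups. LINC01283 and LINC00656 are high in both VCR groups, and LINC02043 and LINC02805 are low in them. The lower row holds genes whose PTPN21 and NC libraries lie apart. For LINC02577, LINC02609 and LINC02625 this is so in 1 treatment, with LINC02625 at 3.60 to 4.69 in NC+VCR and at most 0.945 in PTPN21+VCR. For LINC02506 it is so in both, with PTPN21 cells lower with DMSO and higher with VCR.

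Other genes gave a frame for these shares. In NC cells with VCR 32.0% of the 122 LINC-named genes passed, 33.6% of 788 other long noncoding genes and 36.5% of 9579 protein-coding genes. In PTPN21 cells with VCR the shares were 27.05%, 28.4% and 28.6%. Without drug, PTPN21 and NC cells differed for 4.10%, 2.28% and 6.61%, and with VCR for 0.820%, 1.27% and 1.75%. The spread within groups was similar at matched levels below 5 FPKM, with a median SD of log2(FPKM + 1) of 0.37 for members and 0.36 for all genes at 2 to 5 FPKM. At 5 FPKM and over it was 0.35 and 0.26. LINC00958, with a mean of 34.4, was among the most variable within groups, at 43.8, 10.6 and 11.8 FPKM in NC+DMSO and 10.6, 15.6 and 39.7 in NC+VCR.

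**Figure D5:**
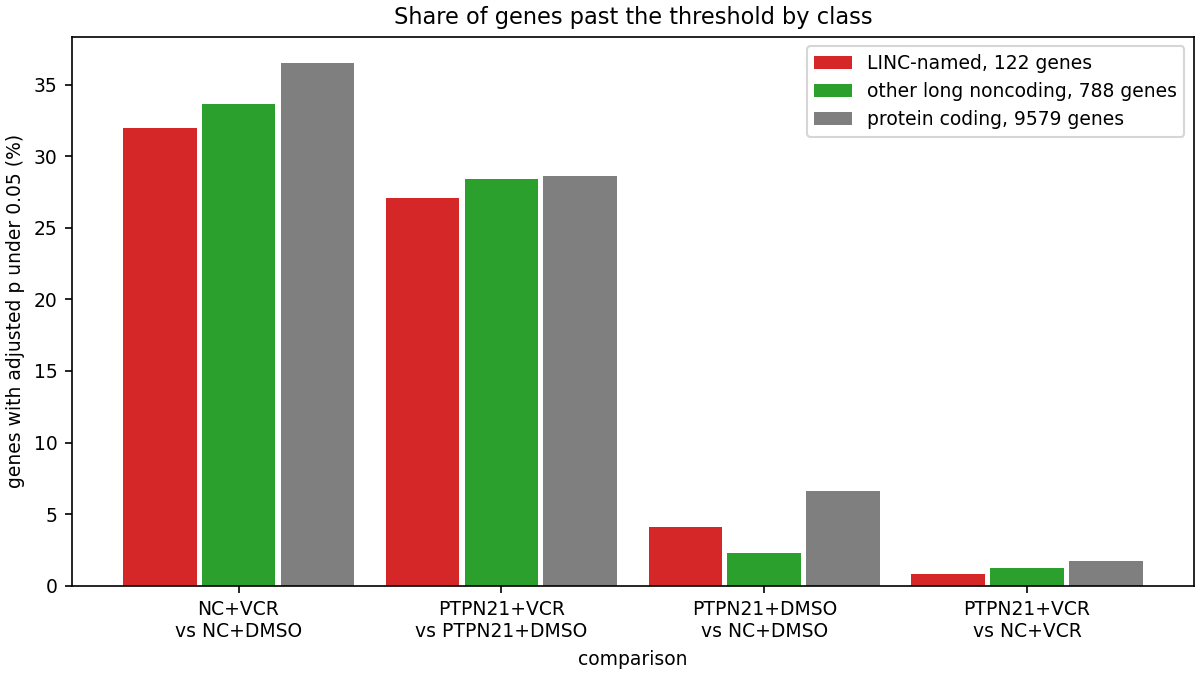
Share of genes with an adjusted p under 0.05 (%) in 4 comparisons for the LINC-named genes, other long noncoding genes and protein-coding genes with a mean of at least 1 FPKM. In the first comparison the bars stand at 32.0%, 33.6% and 36.5%.

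Of 35 noncoding RNAs with names of their own, among them RMRP and RPPH1, 25 were tested. In NC cells 6 rose and 7 fell with VCR (7.91% of all genes rose and 28.3% fell), and in PTPN21 cells 3 rose and 4 fell (9.22% and 19.3%). GAS5 and ZFAS1, which host small nucleolar RNAs, rose in both by 0.92 ± 0.12 and 0.57 ± 0.12 for GAS5 and by 0.67 ± 0.14 and 0.63 ± 0.14 for ZFAS1. MIR17HG, a microRNA host gene, fell in both by 1.81 (SE 0.31) and 2.32 (SE 0.31) on the log2 scale.

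Of the 16 genes near a protein-coding start, 12 had a neighbour that was also tested. In NC cells with VCR the member passed for 3 of the 12 and the neighbour for 3, against 36.2% of all genes, and both did for LINC01011 with NQO2 and LINC01560 with ZNF41, which were lower with VCR. The call of LINC01560 (adjusted p = 0.0485) was lost in 4 of 7 other settings and without any 1 of 9 libraries, those other than NC+DMSO replicate 3 and PTPN21+DMSO replicates 1 and 2 (adjusted p = 0.0544 to 0.247). That of LINC01011 (adjusted p = 0.0207) was lost with median ratio scaling (adjusted p = 0.123) and without NC+DMSO replicate 1 (adjusted p = 0.0771) or NC+VCR replicate 1 (adjusted p = 0.0695). In PTPN21 cells the member passed for 2 and the neighbour for 4, against 28.5% of all genes, and both passed for 2 pairs. LINC01311 fell with SLC25A1, a mitochondrial citrate carrier gene 7435 bases away, by 1.12 (SE 0.31) against 1.44, and its call was lost with a pseudocount of 0.1 (adjusted p = 0.0848), without a filter (adjusted p = 0.0583) and without PTPN21+DMSO replicate 1 (adjusted p = 0.0778) or PTPN21+VCR replicate 2 (adjusted p = 0.0703). LINC01431, with the losses given above, was lower by 0.93 (SE 0.31), and GZF1, a zinc finger gene 4066 bases away, was 1.08 higher.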

How the data were processed

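The 12 RNA-seq libraries were grouped by their labels into 4 groups of 3 (NC or PTPN21 cells, each with DMSO or VCR for 48 h). The authors deposited FPKM values for 60671 genes, made by an external company. The submitters' processing notes name fastp, Bowtie2 and mm10, although the identifiers are human Ensembl ones. The counting program and the human build are not given in the sources used here. Gene positions, exons and types were taken from GENCODE 29 (GRCh38), which held 58453 (96.3%) of the identifiers, and promoters from RefSeq. No read totals are in the table. Many trial depths were scored by the share of low FPKM values of single-exon genes within 0.1 of whole fragments. The best depth reached 41.0% to 53.4% of values per library. Chance gives 20% at 1 fixed depth, and its share at the best of many was not computed. The depth was not recovered and is unknown here. Depth limits mainly the genes near 1 FPKM.

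Values were transformed to log2(FPKM + 1) for the 11591 genes whose mean reached 1. The model of 4 group means, without a block, was fitted by limma 3.58.1 (R 4.3.3, trend option on). Benjamini-Hochberg adjustment was over all genes tested, at a threshold of 0.05, for 5 comparisons. Differences are on the log2(FPKM + 1) scale, with SE from limma, and understate changes of low genes. Tested on simulated data for NC+VCR against NC+DMSO (11591 genes, 200 changed), the fit recovered 93% of changes of 2 and 36% of changes of 1 on the log2 scale, with 5.15% false calls. In the real comparison 4192 genes were called and the median log2 difference was -0.36, so these rates need not hold there.

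The members and lists were chosen with earlier results of these data known. Values per library were given for the 5 highest genes by mean and the 16 with the smallest adjusted p in any comparison, and other genes were added where stated. Genes at 1 FPKM in some groups only, genes beside the limit, neighbours within 10 kb and the 3 most alike genes followed the same rule. Alternatives were a pseudocount of 0.1, no filter, median ratio and TPM scaling, no trend, only the groups compared, a replicate block and leaving out each library. Whether replicate numbers paired the libraries was checked by the correlation of deviations from group means. It was -0.145 to 0.0583 over 18 same-number pairs and none was over 0.1, so the numbers were not taken as pairs. Python 3.11.15 with pandas 2.3.3 was used for the rest.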

Additional observations from a re-analysis of the deposited data

How the results depend on the processing

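Log2 differences kept their sign for all 28 called pairs of the 16 named genes and comparison under every alternative. Under 7 kinds of setting 184 of 196 values stayed past the threshold, and with 1 library left out 328 of 336 did. The 16 genes were chosen for the smallest adjusted p in the same data, which favoured this outcome in advance. Other calls, such as that of LINC01560 and those in PTPN21+DMSO against NC+DMSO, were lost more often, as given above. With the replicate block, 38, 30, 1, 1 and 0 members passed in NC+VCR against NC+DMSO, PTPN21+VCR against PTPN21+DMSO, PTPN21+DMSO against NC+DMSO, PTPN21+VCR against NC+VCR and the interaction. The main counts of members were 39, 33, 5, 1 and 0. Among members the block thus moved only PTPN21+DMSO against NC+DMSO by over 1.5 times, to 1, and the numbers share no more than a number. Of all 11591 genes, 3796, 2956, 242, 74 and 8 passed with the block and 4192, 3308, 735, 211 and 15 in the main fit. Without a filter 21, 0 and 0 members passed in PTPN21+VCR against PTPN21+DMSO, PTPN21+DMSO against NC+DMSO and PTPN21+VCR against NC+VCR (29 and 11 at an unadjusted p under 0.05 where none passed, limma). Of the 28170 genes then tested, 2787, 177 and 118 passed. PTPN21+DMSO against NC+DMSO also gave 2 members without the trend, 0 with only the groups compared (31 at an unadjusted p under 0.05) and 8 with TPM scaling. Of all 11591 genes these settings called 321, 40 and 1062. Leaving out 1 library gave 32 to 45, 21 to 38, 0 to 9, 0 to 4 and 0 to 1 members in the order above. Over all 11591 genes it gave 3224 to 4024, 2353 to 3619, 67 to 1345, 43 to 354 and 7 to 30. The cause was not tested. For the NC and PTPN21 responses to VCR, only the groups compared gave 27 and 45 members, and 2674 and 4157 of all 11591 genes. The rule gave 81 members at a mean of at least 2 and 89 at 1 in every group. TPM scaling put the 5 highest at 94.9, 68.3, 60.1, 59.8 and 59.1 TPM in the same order.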

Other observations

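Overlapping gene models among the 122 limited what could be told apart. Exons of LINC00667 and LINC00526, and of LINC00115 and LINC01128, overlap each other on opposite strands in GENCODE 29.

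LINC01629 was at 0.223 FPKM in PTPN21+DMSO and 1.69 in PTPN21+VCR (group means), a rise of 1.17 ± 0.29 on the log2 scale (limma adjusted p = 0.0104). LINC00261, a gene beside FOXA2, was at 1.40 and 3.89 in the same groups, a rise of 1.01 ± 0.34 (adjusted p = 0.0414) that was called in 5 of the 12 fits that left out 1 library. Among the more abundant genes, LINC01088 fell from 42.4 to 26.5 FPKM in NC cells (adjusted p = 0.0035) and from 35.2 to 22.7 in PTPN21 cells (adjusted p = 0.00703), and LINC00431 rose from 14.8 to 25.1 (adjusted p = 0.0114) and from 13.3 to 24.8 (adjusted p = 0.00458). With median ratio scaling the fall of LINC01088 in NC cells did not pass (adjusted p = 0.135). These genes were named after their values were seen.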
